A study of Mus musculus with 6 samples.

Results

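The genes described here encode the voltage-gated and potassium channels of the mouse, together with the genes transcribed from the opposite DNA strand across their exons. Channel genes were taken from a deposited count table by symbol (Kcn, Scn, Cacn and Hcn names), apart from a pair of symbols not used here, which gave 140 rows. Of these, 4 were noncoding antisense genes named for the channel gene that they lie opposite (Kcnab3os, Kcnd3os, Kcnmb4os1 and Kcnmb4os2), and they were counted with the opposite-strand genes. This left 136 channel genes. Another 38 genes shared at least 1 exonic base with a channel gene on the opposite strand, so that there were 42 opposite-strand genes, in 42 pairs with 35 channel genes. In all, 178 of the 57010 genes in the table were described.

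The libraries came from 2 kinds of wild-type mouse cells, with 3 replicates of each, all labelled as untreated. The library names of neuron replicates 2 and 3 contain the word empty and that of neuron replicate 1 does not, which the labels leave unexplained. The first were embryonic stem cells (ESC), pluripotent cells grown in standard culture. The second were primary cortical neurons, taken from embryos of day 16.5 and cultured for 7 days (DIV7). Polyadenylated RNA was sequenced from paired ends after oligo-dT priming. The study used these libraries as the pluripotent and neuronal ends of a developmental scale. The labels give no mouse strain and no name for the ESC line. The labelled batch is the same as the group, so batch and cell type cannot be told apart, and nothing says that the replicates were separate cultures, so p-values measure the spread between these libraries only.

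Potassium channels set the resting potential of a neuron and end its action potentials. Sodium channels start the action potential, calcium channels couple it to transmitter release and gene expression, and hyperpolarisation-activated HCN channels carry a pacemaker current. Most are built from a large pore-forming subunit and smaller accessory subunits that change its gating or its delivery to the membrane. Cortical neurons in culture acquire these currents over days as they become excitable, and stem cells are not excitable in this way.

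The libraries were shallow, with 1368303 to 1775055 counts in ESC and 513425 to 624792 in neurons. A gene at 3 counts stood at 2.26 to 2.90 CPM (counts scaled to a common library size with the trimmed mean of M values) in ESC and at 3.92 to 4.81 CPM in neurons. Of 10 pluripotency markers, 7 had no count in any neuron library, and their summed level was 166 to 243 CPM in ESC and 2.61 to 4.81 CPM in neurons. The 10 neuron markers summed to 170 to 226 CPM in ESC and 1071 to 1311 CPM in neurons, most of it from Nefm, a neurofilament gene that also shares exonic bases with another gene. Of the 4 neuron markers tested, 2 were higher in neurons, 1 did not pass and 1, Stmn2, a growth-cone gene, was lower with 27, 25 and 16 counts against 8, 1 and 3. Snap25, a synaptic fusion protein, had 0 counts in all ESC libraries and 3, 3 and 0 in neurons. The 7 glutamatergic markers summed to 53.4 to 61.9 CPM in ESC and 112 to 125 CPM in neurons, and the vesicular transporter gene Slc17a7 was lower in neurons (64, 49 and 54 counts against 2, 1 and 0). The 7 GABAergic markers summed to 1.94 to 5.27 CPM in ESC and 490 to 647 CPM in neurons, nearly all from Dlx1, which shares exonic bases with another gene. Among other brain cells, the 7 astrocyte genes stood at 2.71 to 5.27 CPM in ESC and 44.9 to 78.3 CPM in neurons, and the 7 oligodendrocyte lineage genes stood at 24.1 to 29.9 CPM in ESC and 40.1 to 60.0 CPM in neurons. The 6 microglia genes were at 201 to 266 CPM in ESC and 130 to 145 CPM in neurons, mostly from Csf1r, with C1qa and Tmem119 at 0 in all libraries. Both tested members, Csf1r and Cx3cr1, were lower in neurons, and neither call held under total counts (adjusted p = 0.973 and 0.418 in edgeR). The part of these cell types in the results was not tested, and in bulk RNA fewer cells of a type and less RNA per cell cannot be told apart.

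Exons were shared across strands by 36 of the 136 channel genes (26.5%), and by 16.8% of all genes in the table. The channel genes were longer, with a median of 4784.5 exonic bases against 1231 and a median span of 41980 bases against 3238. The part of length in the difference was not tested. For 35 of the 36 the opposite gene was described here, and Kcnq1 was the other. A further 10 channel genes lay opposite another gene through introns only, and 90 had no gene opposite. The GENCODE M21 annotation (GRCm38) held both genes of 39 pairs. There the shared bases included coding bases of the channel gene in 23 pairs and were all coding in 10. They lay wholly before the start codon in 7 and wholly past the last annotated coding base in 6. Whether the libraries kept the strand, and with which strand setting reads were counted, is not given in the sources used here. In libraries that keep the strand, a setting opposite to the kit would put the reads of every gene, sharing exons or not, on the other strand, so that counts of an opposite-strand gene could be reads of the channel gene. This was not tested; beside it stand the low counts of neuron markers that share no exonic base, such as Snap25. Counts assigned to a channel gene and to its opposite-strand partner therefore cannot be told apart with certainty, and each is reported as the table assigned it.

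**Figure D1:**
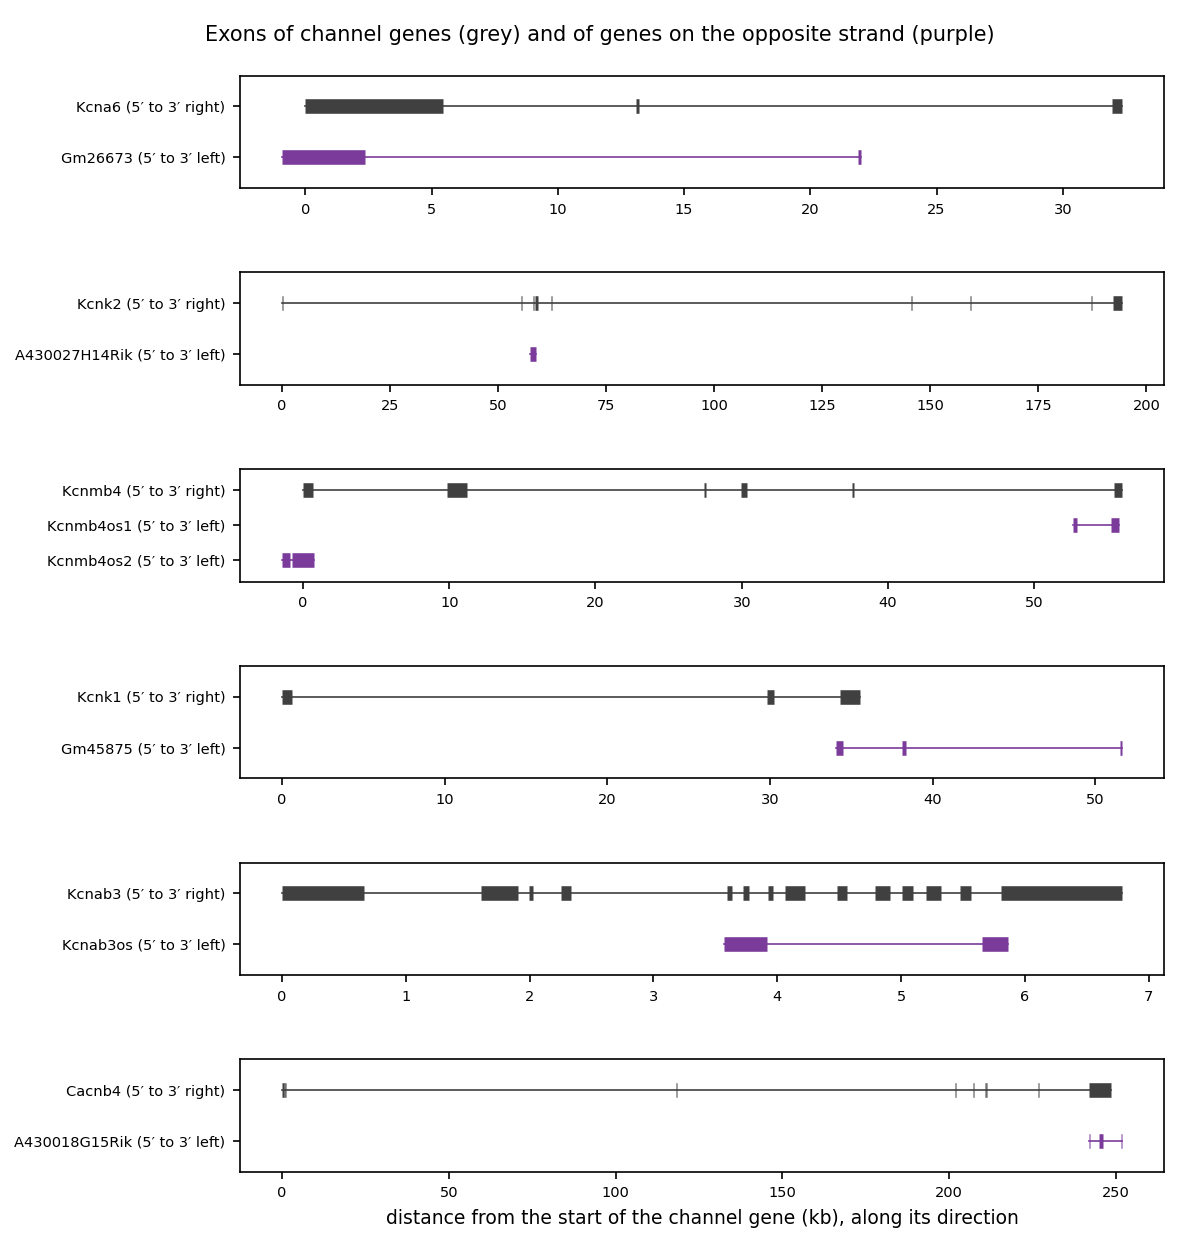
Exons of 6 channel genes (grey) and of the genes opposite them (purple), drawn to scale from the table; the horizontal axis is the distance in kb from the start of the channel gene along its own direction, and thick bars are exons. The large exon of Gm26673 lies across the first exon of Kcna6 (2355 shared bases), while Kcnab3os meets Kcnab3 in 147 bases.

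The pair with the longest shared stretch was Kcna6 and Gm26673. Kcna6 encodes a Shaker-type delayed rectifier subunit and lies at chr6:126685292-126717637 on the minus strand (GRCm39), and the antisense gene Gm26673 lies at chr6:126695647-126718564 on the plus strand. They share 2355 exonic bases. In M21 these held all 1587 annotated coding bases of Kcna6, 750 bases before its start codon and 18 past its last annotated coding base, the stop codon included. The letters below show what such sharing means: the same double-stranded DNA encodes the potassium selectivity filter when read as Kcna6 and part of an antisense RNA when read the other way. The codons of the filter signature, 15 bases, are in capitals with the coding bases around them, read 5′ to 3′ from M21 transcripts. Among 14 pairs searched for a filter signature, its complement lay in an M21 transcript of the opposite gene in 2, of which Kcna6 is shown.
Kcna6, coding bases 1231 to 1311: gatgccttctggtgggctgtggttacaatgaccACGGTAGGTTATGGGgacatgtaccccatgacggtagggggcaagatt
Gm26673, the same bases on its strand: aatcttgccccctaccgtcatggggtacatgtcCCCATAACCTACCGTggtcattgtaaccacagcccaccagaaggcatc

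The start codon was the other landmark searched. Its complement lay in an M21 transcript of the opposite gene in 7 of 39 pairs. The first 36 coding bases are shown for Kcna6 and for the 2 genes of the large-conductance calcium-activated (BK) potassium channel, the pore gene Kcnma1 and its neuronal accessory gene Kcnmb4, since opposite-strand genes at these 3 loci were among the most abundant in neurons. The start codon is in capitals. For Kcnma1, a different start codon of another M21 transcript also had its complement in the opposite gene 4930519K11Rik and is not shown.
Kcna6: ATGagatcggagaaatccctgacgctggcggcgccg
Kcnma1: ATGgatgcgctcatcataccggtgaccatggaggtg
Kcnmb4: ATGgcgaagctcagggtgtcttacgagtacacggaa

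Between ESC and neurons, the channel genes as assigned differed less in summed level than the genes opposite them. The 136 channel genes together stood at 581 to 645 CPM in ESC and 862 to 903 CPM in neurons, a ratio of 1.44. The 42 opposite-strand genes stood at 567 to 600 CPM in ESC and 2869 to 2918 CPM in neurons, a ratio of 4.95. Within the channel genes, the 100 that shared no exonic base summed to 136 to 148 CPM in ESC and to 450 to 491 CPM in neurons, while the 35 with an opposite-strand partner summed to 444 to 498 CPM in ESC and 349 to 442 CPM in neurons. These sums are descriptions without a test, and their size depends on the scaling. With CPM taken over all counts of a library, without the trimmed mean, the ratio was 2.33 for channel genes, 8.02 for opposite-strand genes and 5.37 for channel genes that shared no exonic base. On that scale the direction turned for the 35 with a partner, which were at 335.5 to 372.4 CPM in ESC and 424.6 to 542.6 CPM in neurons, a ratio of 1.34.

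**Figure D2:**
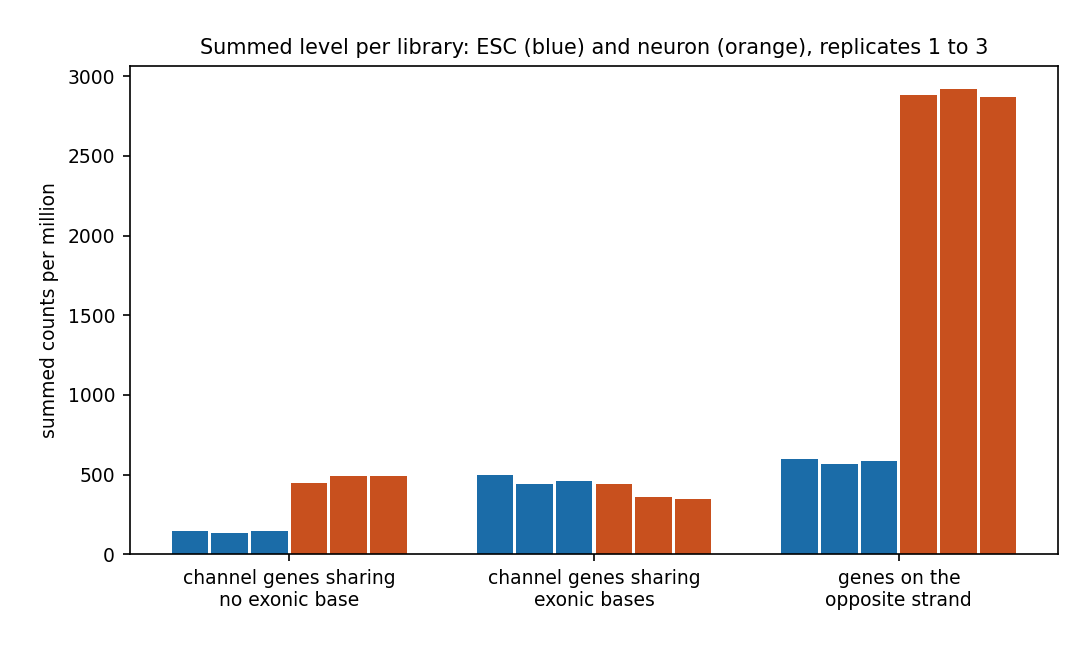
Summed level (CPM) of 3 sets of genes in each library; each bar is 1 library, in the order of replicates 1 to 3, blue for ESC and orange for neurons. The opposite-strand genes reach 2869 to 2918 CPM in the neuron libraries, the channel genes with an opposite-strand partner 349 to 442 CPM, lower than in ESC on this scale and higher when scaled by total counts.

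Per gene, neurons were compared with ESC by edgeR's quasi-likelihood test across 7150 genes that passed a filter on low counts, with Benjamini-Hochberg adjustment over all of them and a threshold of 0.05. Of all tested genes, 85.6% passed, 47.0% of them higher and 38.6% lower in neurons. Over all of them the log2 fold changes had a median of 0.37. Only 30 of the 136 channel genes were tested. Of these, 20 were higher in neurons, 7 were lower and 3 did not pass, so that 27 of 30 were called, near the share of all genes. Their median log2 fold change was 2.03. The libraries did not overlap between the groups in 28 of the 30, where 86.4% of all tested genes did not overlap. The filter works on CPM, and the smaller neuron libraries passed it with fewer counts: Cacnb2 was tested with 7, 6 and 6 counts in neurons, while Kcna7 was not with 21, 11 and 14 in ESC. A gene present in a single group passed only through that group and had to differ, so these counts give no support to a direction.

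Of the 100 channel genes that shared no exonic base, 13 were tested, 12 were higher in neurons and 1, Kcnk4, was lower; among all tested genes of that kind 87.4% were called, 57.9% higher and 29.5% lower. Of the 35 with an opposite-strand partner, 16 were tested, 7 were higher, 6 were lower and 3 did not pass; among all tested genes that share exonic bases 84.6% were called, 41.2% higher and 43.4% lower. The difference in direction between both kinds of channel gene was not tested.

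**Figure D3:**
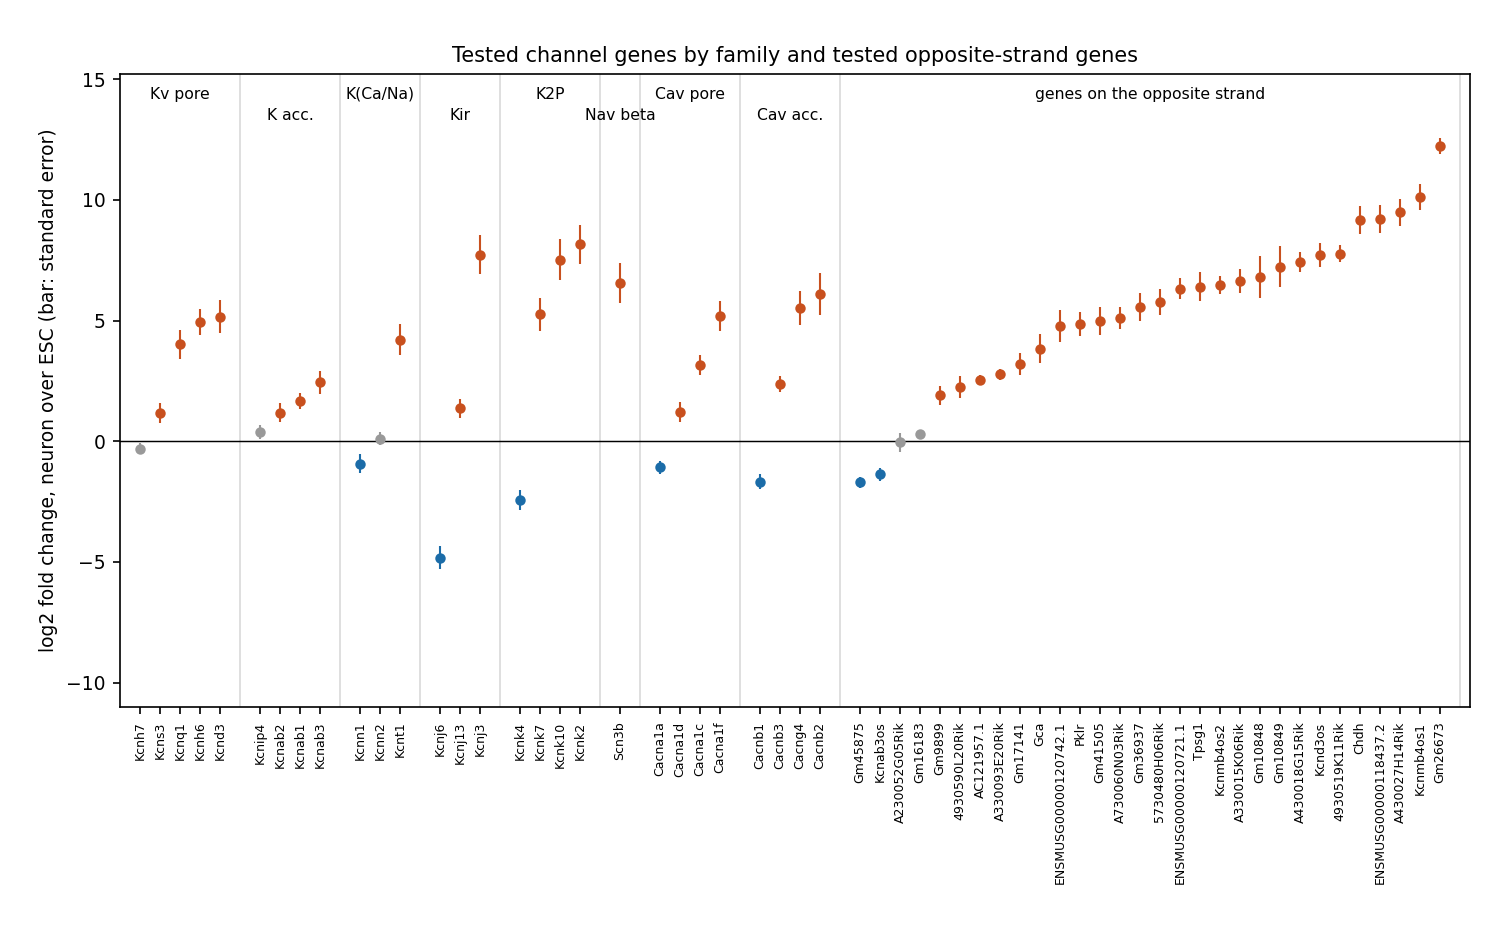
Log2 fold change (neuron over ESC, vertical axis) of 28 tested channel genes by family and of 30 tested opposite-strand genes; bars are standard errors, orange is higher, blue lower and grey not past an adjusted p of 0.05. Opposite-strand genes run from -1.69 (Gm45875) to 12.24 (Gm26673), channel genes from -4.83 (Kcnj6) to 8.16 (Kcnk2).

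Voltage-gated potassium pore genes, which repolarise the membrane, made up the largest family, with 40 members of which 7 were tested. Of these, 4 were higher in neurons, 2 were lower and 1 did not pass. Kcnd3, which carries a transient A-type current, had 1, 0 and 0 counts in ESC against 15, 8 and 8 in neurons, a ratio of 52.2 with a counting interval of 8.69 to 2125. Kcnh6, an Erg-type gene, had 2, 0 and 1 counts in ESC against 28, 20 and 15. Kcnq1, a slow delayed rectifier best known from heart, had 2, 1 and 0 against 8, 11 and 14. All neuron libraries lay above all ESC libraries for these 3 genes, and edgeR gave adjusted p-values of 1.13e-08, 1.6e-10 and 1.03e-07. Kcns3, a silent modifier subunit, had 7, 9 and 7 counts in ESC against 11, 14 and 6 in neurons, which in CPM is 6.77 ± 1.76 and 14.9 ± 5.65 (SD, n = 3). Its log2 fold change was 1.16 (SE 0.42, adjusted p = 0.0112 in edgeR), and it did not pass in 4 of the alternatives tried, among them without ESC replicate 1 (adjusted p = 0.0736) and without neuron replicate 2 (adjusted p = 0.16).

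Kcnh7, the other Erg-type gene tested, did not pass. It had 76, 62 and 64 counts in ESC against 41, 27 and 29 in neurons, or 58.4 ± 1.44 and 46.7 ± 6.64 CPM (SD, n = 3). The log2 fold change, -0.31 (SE 0.23, adjusted p = 0.194 in edgeR), turned to 0.42 when libraries were scaled by total counts, and the groups did not overlap in CPM.

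Many channels that textbooks place in cortical neurons had next to no counts in the neuron libraries as assigned. Kcnq3, a subunit of the M-current that dampens repetitive firing, had 1, 1 and 0 counts in ESC against 2, 1 and 0 in neurons. Kcna1, an axonal channel, had 0, 0 and 1 in neurons, and Kcna2, which joins it there, had 5, 7 and 5. Kcnd2, the main dendritic A-type channel, had 1, 1 and 0. None was tested, and at this depth an absence of these transcripts cannot be read from such counts. Kcna7, with the highest count of any untested channel gene, had 21, 11 and 14 in ESC against 2, 0 and 0.

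Accessory genes of potassium channels, those of the BK channel included, had 16 members, with 4 tested, 3 higher and none lower. All 3 were Kv beta subunits, cytoplasmic proteins that bind Kv1 channels. Kcnab1 had 12, 10 and 14 counts in ESC against 25, 29 and 15 in neurons (10.5 ± 1.94 and 33.3 ± 9.60 CPM, SD, n = 3). Its log2 fold change was 1.67 (SE 0.34, adjusted p = 2.17e-05 in edgeR). Kcnab3 had 3, 2 and 3 counts in ESC against 7, 12 and 8 in neurons, and Kcnab2 had 9, 8 and 7 against 15, 11 and 7. In CPM no neuron library overlapped an ESC library for any of the 3, but Kcnab2 (log2 fold change 1.19, adjusted p = 0.00714 in edgeR) did not pass without neuron replicate 1 (adjusted p = 0.0791). Kcnip4, an A-type channel partner, had 48, 27 and 20 counts in ESC against 29, 28 and 17 in neurons and did not pass (log2 fold change 0.40, SE 0.29, adjusted p = 0.19 in edgeR). With scaling by total counts it did (log2 fold change 1.13).

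Calcium- and sodium-activated potassium genes had 8 members and 3 tested. Kcnt1, a sodium-activated channel, had 2, 0 and 0 counts in ESC against 9, 7 and 11 in neurons, a ratio of 22.7 with a counting interval of 5.71 to 197. The small-conductance channel Kcnn1, which shapes the after-hyperpolarisation, had 27, 21 and 13 counts in ESC against 9, 6 and 4 in neurons. It fell by 0.92 on the log2 scale (SE 0.40, adjusted p = 0.0331 in edgeR), a call lost in 6 of the alternatives, among them scaling by total counts (-0.20, adjusted p = 0.657), without neuron replicate 2 (adjusted p = 0.056) and without neuron replicate 3 (adjusted p = 0.116). Kcnn2, of the same family, stood at 31.5 ± 9.20 CPM in ESC and 34.3 ± 3.32 CPM in neurons (SD, n = 3) and did not pass (log2 fold change 0.10, SE 0.27, adjusted p = 0.723 in edgeR). Scaled by total counts, Kcnn2 passed at 0.84, and without ESC replicate 2 its value was -0.15.

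Inward rectifiers, which hold the resting potential and answer to G proteins, had 15 members with 3 tested, and the 2 tested G protein-gated genes went opposite ways. Kcnj3 (GIRK1) had no counts in ESC and 15, 21 and 23 in neurons, at least 11.1-fold above 3 counts per ESC library (adjusted p = 5.26e-11 in edgeR). Kcnj6 (GIRK2), with which it forms neuronal channels, had 89, 42 and 75 counts in ESC against 2, 0 and 2 in neurons. Its log2 fold change was -4.83 (SE 0.47, adjusted p = 8.55e-12 in edgeR), and for both genes the groups were far apart. Kcnj13 (Kir7.1), best known from epithelia, had 12, 8 and 7 counts in ESC against 21, 12 and 9 in neurons. It was higher by 1.37 (log2, SE 0.39, adjusted p = 0.00152 in edgeR), and 49.1% of its exonic bases are shared with the opposite gene Gigyf2.

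Leak (K2P) channels, which are open at rest, had 13 members with 4 tested. Kcnk2 (TREK-1), opened by stretch and lipids, had no count in ESC and 42, 13 and 25 in neurons, at least 14.5-fold higher. Kcnk10 (TREK-2) likewise had none in ESC and 11, 18 and 22 in neurons, at least 9.71-fold higher. Kcnk4 (TRAAK), the remaining member of that subfamily, had 30, 32 and 30 counts in ESC against 3, 4 and 3 in neurons and was lower by a log2 fold change of -2.43 (SE 0.42). The edgeR adjusted p-values were 1.48e-10, 3.74e-10 and 2.18e-06, with no overlap between groups. Kcnk4 also shares exonic bases with a gene on its own strand, so counting could split its reads. Kcnk7, a subunit not known to conduct by itself, had 1, 0 and 0 counts in ESC against 10, 9 and 14 in neurons.

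Of the 10 sodium channel pore genes none was tested, and they summed to 3.76 to 5.80 CPM in ESC and 25.3 to 28.9 CPM in neurons. Scn8a, the main channel of the axon initial segment in mature neurons, had 0, 2 and 0 counts in ESC against 5, 8 and 9 in neurons. Scn2a, its earlier counterpart, had 0, 0 and 1 against 2, 2 and 4, and Scn1a, prominent in interneurons, had 2, 0 and 0 in neurons. These levels lay close to that of 3 counts per library. Among the 4 beta subunits, Scn3b had no count in ESC and 9, 10 and 7 in neurons, at least 4.81-fold higher (adjusted p = 7.02e-09 in edgeR).

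Calcium channel pore genes had 10 members with 4 tested, 3 of them higher. Cacna1c, the L-type channel that links activity to transcription, had 8, 3 and 1 counts in ESC against 24, 20 and 22 in neurons (log2 fold change 3.17, SE 0.42, adjusted p = 1.46e-08 in edgeR). Cacna1d, the other neuronal L-type gene, had 12, 4 and 7 in ESC against 10, 13 and 9, which in CPM is 6.41 ± 2.58 and 15.6 ± 3.33 (SD, n = 3). It passed with an adjusted p of 0.00755 in edgeR, but not without ESC replicate 2 (adjusted p = 0.0546) or without neuron replicate 2 (adjusted p = 0.0788). Cacna1f, an L-type gene best known from the retina, had 0, 0 and 2 in ESC and 25, 12 and 17 in neurons, a ratio of 45.4 with a counting interval of 11.98 to 385.

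Cacna1a, the P/Q-type channel of presynaptic terminals, went the other way. It had 73, 57 and 45 counts in ESC against 24, 12 and 13 in neurons, or 50.3 ± 8.27 and 23.4 ± 7.06 CPM (SD, n = 3). The groups did not overlap and the log2 fold change was -1.08 (SE 0.28, adjusted p = 0.000457 in edgeR), but with scaling by total counts it was -0.35 (adjusted p = 0.233). The T-type gene Cacna1i, not tested, had 14, 12 and 12 counts in ESC against 0, 1 and 0 in neurons. The N-type gene Cacna1b, a presynaptic partner of Cacna1a, had 0, 1 and 1 against 3, 2 and 4.

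Of the 16 accessory genes of calcium channels 4 were tested, and the beta subunits, which bring the pore to the membrane, divided. Cacnb3 had 14, 5 and 12 counts in ESC against 27, 34 and 35 in neurons (8.74 ± 3.39 and 47.3 ± 10.8 CPM, SD, n = 3; log2 fold change 2.38, adjusted p = 2.56e-08 in edgeR). Cacnb2 had none in ESC and 7, 6 and 6 in neurons, at least 3.52-fold higher. Cacnb1, the skeletal muscle isoform, was lower, with 50, 39 and 46 counts in ESC against 10, 7 and 8 in neurons (log2 fold change -1.67, SE 0.31, adjusted p = 8.02e-06 in edgeR). Cacng4, a transmembrane AMPA receptor regulatory protein, had 1, 0 and 0 counts in ESC against 9, 13 and 18 in neurons. Cacng2 (stargazin), of the same group, had 2, 0 and 0 against 5, 4 and 4 and was not tested.

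The 4 HCN genes were all below the filter. Hcn2, a neuronal isoform, had 3, 1 and 0 counts in ESC against 13, 6 and 5 in neurons. Over all families 106 channel genes were untested. Of these, 13 had no count anywhere, 33 had counts in neurons only, 18 in ESC only and 42 in both.

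The genes on the opposite strand were mostly higher in neurons. Of the 42, 32 were tested, 27 were higher, 2 were lower and 3 did not pass, with a median log2 fold change of 5.34. The 29 calls among 32 again lie near the 85.6% of all tested genes, whose median was 0.37. Of all tested genes 47.0% were higher, and 41.2% of those that share exonic bases. The libraries did not overlap in 30 of the 32, where 86.4% of all tested genes did not overlap. The opposite-strand genes, too, were tested in part because they were high in 1 group.

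Gm26673, the antisense gene across Kcna6, was the most abundant member in neurons. It was at 0 in all ESC libraries, and its neuron counts were 522, 413 and 421, which is 657 ± 36.3 CPM (SD, n = 3). Every neuron library was far above ESC, by at least 250-fold against 3 counts per ESC library (log2 fold change 12.24, SE 0.34, adjusted p = 7.8e-28 in edgeR). Kcna6 itself had 1, 0 and 1 counts in ESC against 2, 0 and 1 in neurons. Of all the neuron counts at this locus, 99.8% were assigned to Gm26673 (lower bound of the exact 95% interval 99.4%, counting error only).

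Both BK channel genes showed the same arrangement. Kcnma1 had no ESC counts and 6, 3 and 6 in neurons, while 4930519K11Rik, whose exons cover its start codon from the other strand, had 3, 0 and 0 against 161, 152 and 138. Kcnmb4 had no ESC counts and 7, 8 and 4 in neurons; Kcnmb4os1 at its 3′ end had none in ESC and 93, 123 and 94 in neurons, and Kcnmb4os2 at its 5′ end had 1, 1 and 2 against 81, 71 and 83. In neurons 96.8% of the counts at Kcnma1 (95% interval 94.7 to 98.2%) and 96.6% of those at Kcnmb4 (94.8 to 98.0%) went to the opposite-strand genes. The edgeR adjusted p-values of the 3 opposite genes were 1.48e-21, 2.33e-19 and 2.93e-18.

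Opposite-strand levels were also high in neurons at several other Kv loci. Kcnd3os, which starts head to head with Kcnd3 and shares 165 bases before its start codon, had 0, 0 and 1 counts in ESC against 78, 63 and 44 in neurons. At Kcna3 the opposite gene ENSMUSG00000120721.1 had 0, 0 and 4 against 81, 75 and 56, whereas Kcna3, a Shaker-type channel best known from lymphocytes, had 0, 2 and 2 in neurons. Opposite Kcnab1, A330015K06Rik had 2, 0 and 0 against 52, 44 and 50. At all 3 loci the opposite gene was higher in each neuron library than in any ESC library and held the larger part of the neuron counts.

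At the leak channel Kcnk2, A430027H14Rik had no count in ESC and 83, 60 and 58 in neurons, at least 36.9-fold higher. Opposite the GIRK gene Kcnj9, Gm36937 had 2, 0 and 0 counts in ESC against 24, 25 and 20 in neurons. The 3 genes opposite Kcnn2 were all higher in neurons: A330093E20Rik had 35, 23 and 17 against 113, 98 and 94, AC121957.1 had 31, 30 and 25 against 115, 86 and 96, and ENSMUSG00000120742.1 had 0, 2 and 0 against 17, 6 and 17. Kcnn2 itself did not pass.

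Among calcium channel loci, A430018G15Rik at the 3′ end of Cacnb4, an accessory gene of neuronal calcium channels, had 3, 0 and 0 counts in ESC against 117, 152 and 84 in neurons. Cacnb4 had 15, 12 and 12 against 14, 13 and 5 and was not tested. Opposite Cacna1d, Chdh (choline dehydrogenase, tail to tail with it) had none in ESC and 64, 50 and 47 in neurons, and ENSMUSG00000118437.2 had none against 59, 55 and 50. They were at least 29.6-fold and 30.4-fold higher. Opposite Cacng2, A730060N03Rik had 2, 0 and 3 counts in ESC against 45, 44 and 24 in neurons.

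Protein-coding genes on the opposite strand that are known from other tissues carried neuron counts as well. Pklr, the pyruvate kinase of liver and red cells, lies tail to tail with Hcn3 and had 1, 2 and 1 counts in ESC against 30, 25 and 22 in neurons, while Hcn3 had 2, 6 and 5 against 2, 1 and 0. Tpsg1, a mast cell tryptase tail to tail with Cacna1h, had 0, 0 and 1 against 27, 24 and 23, and the T-type gene Cacna1h had 1, 1 and 2 in neurons. Gca, encoding grancalcin, a calcium-binding protein of white blood cells, shares 696 bases past the last annotated coding base of Kcnh7. It had 2, 0 and 1 against 8, 14 and 7. All 3 were higher in edgeR, with adjusted p-values of 9.22e-12, 3.17e-12 and 3.27e-07, and their neuron libraries all lay above the ESC libraries. Of the 7 protein-coding opposite genes 5 were tested and 5 were higher. Among all tested genes 47.0% were higher, and among those sharing exonic bases 41.2%. The other 2, Gigyf2 opposite Kcnj13 and Mcrs1 opposite Kcnh3, did not pass the filter and stood lower in neurons. Gigyf2 had 10, 8 and 11 counts in ESC against 1, 1 and 0 in neurons. Mcrs1 had 21, 15 and 13 against 1, 1 and 2, and for both the groups did not overlap in CPM. Genes such as Chdh and Tpsg1 passed the filter through the neuron libraries alone and had to be higher, so the 5 higher calls support no direction.

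A pair of opposite-strand genes was lower in neurons. Gm45875, at the 3′ end of the leak channel gene Kcnk1, had 260, 106 and 225 counts in ESC against 38, 39 and 30 in neurons (167 ± 56.2 and 51.9 ± 5.41 CPM, SD, n = 3; log2 fold change -1.69, adjusted p = 1.07e-07 in edgeR). Kcnab3os had 73, 58 and 53 against 16, 14 and 12 (53.0 ± 4.41 and 20.3 ± 0.95 CPM, SD, n = 3; log2 fold change -1.38, adjusted p = 1.48e-05 in edgeR). The groups were clear of each other for both genes.

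The 3 opposite-strand genes that did not pass included the partner of Cacna1a. Gm16183, opposite that gene, stood at 142 ± 28.5 CPM in ESC and 173 ± 18.5 CPM in neurons (log2 fold change 0.28, adjusted p = 0.102 in edgeR), with 1.01 under scaling by total counts and 0.39 without ESC replicate 2 (adjusted p = 0.0162). A230052G05Rik, head to head with Kcnn1, had a log2 fold change of -0.04 (SE 0.38, adjusted p = 0.922 in edgeR), which was 0.68 under total counts.

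**Figure D4:**
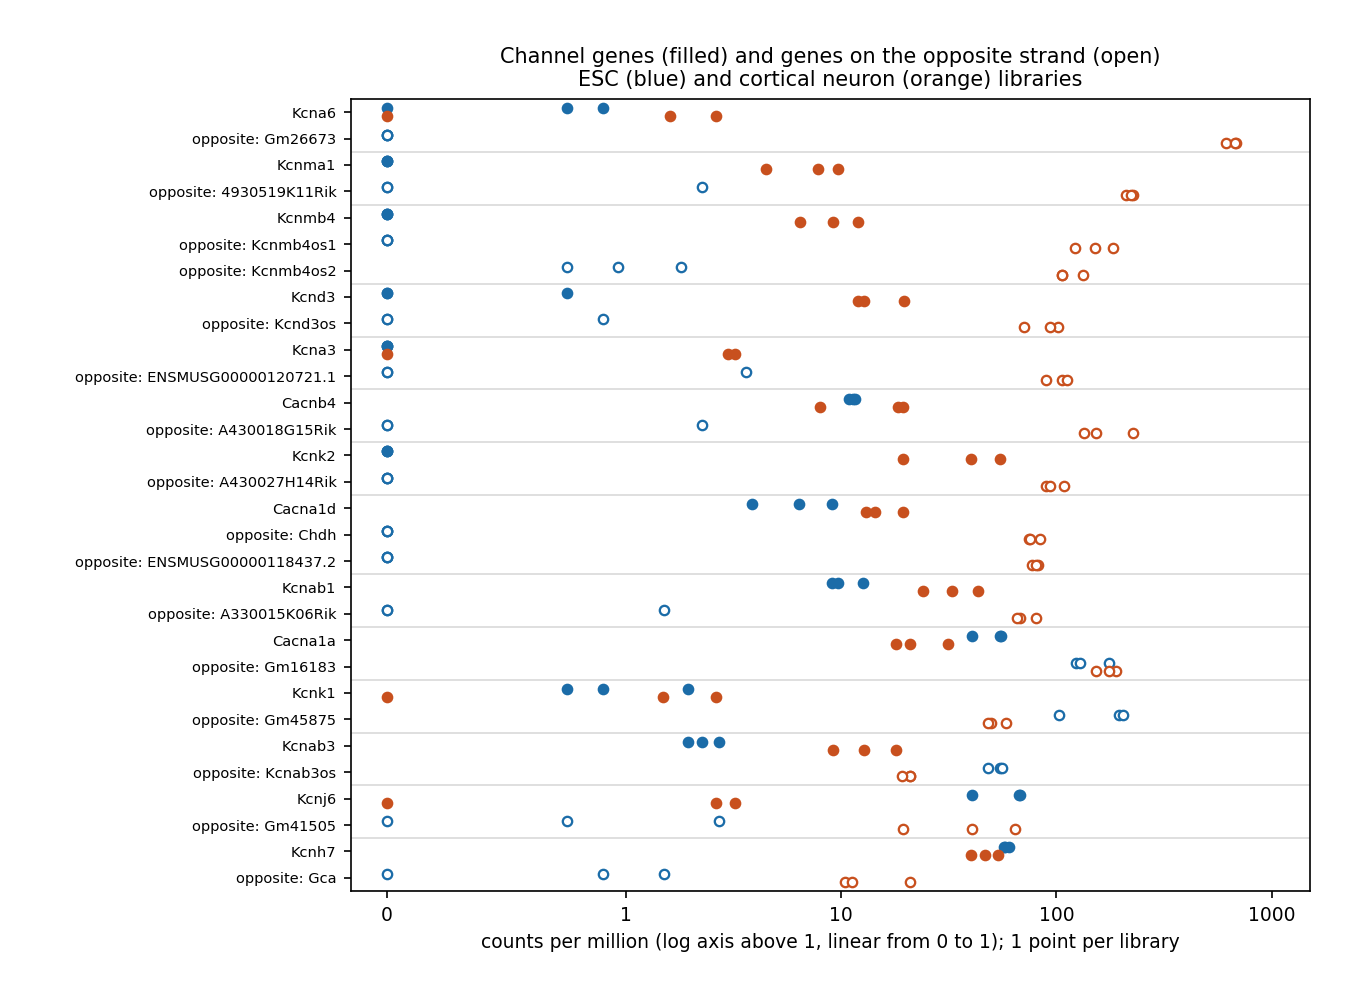
Level (CPM, horizontal axis, logarithmic above 1) of channel genes (filled points) and of the genes opposite them (open points); each point is 1 library, blue for ESC and orange for neurons. Gm26673 is at 0 in the ESC libraries and at 615 to 681 CPM in neurons, beside a Kcna6 near 0 in all libraries.

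Seen gene by gene within pairs, both partners were tested in 18 pairs and both called in 10. Of all tested genes 85.6% were called, and the share among pairs of other genes was not computed. In 7 of the 10 pairs both were higher in neurons, in none were both lower, and in 3 they went opposite ways, of which 2 are described. Cacnb2, Kcnk2 and their tested partners had no ESC counts and passed the filter through the neuron libraries. Their pairs had to be higher, so the 7 give no support to a direction. Kcnj6 was lower while Gm41505 was higher, with 1, 0 and 3 against 31, 13 and 40. Kcnab3 was higher while Kcnab3os was lower. The counts of the 2 partners thus exchanged places between ESC and neurons at Kcnj6, where the opposite gene held 1.9% of the ESC counts and 95.5% of the neuron counts.

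Per length, the opposite gene was also the higher one in neurons at the main loci. In neurons Gm26673 had 195 CPM per kb of exon, 4930519K11Rik 102 and Kcnmb4os1 184 CPM per kb. Kcna6, Kcnma1 and Kcnmb4 themselves had 0.236, 0.430 and 2.76 CPM per kb. The highest channel genes in neurons on that scale were Kcnj13 at 15.7, Cacnb3 at 11.8 and Kcnk7 at 10.4 CPM per kb. Of these, Kcnj13 shares 49.1% of its exonic bases with Gigyf2 on the opposite strand. In ESC Gm45875 had 214 CPM per kb, and among the channel genes Cacnb1 had 8.61 and Kcnj6 7.66 CPM per kb.

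The opposite-strand genes held 54.7%, 56.1% and 56.0% of all counts at the 35 loci in the ESC libraries (55.6 ± 0.80%, SD, n = 3). In the neuron libraries they held 86.7%, 89.0% and 89.1% (88.3 ± 1.36%, SD, n = 3). The groups did not overlap. No test was made of this share, which is a score over the members, and without the Kcna6 locus the neuron value was 85.4%. By locus, the opposite-strand genes had more counts than the channel gene at 29 of 34 loci with counts in neurons and at 14 of 32 in ESC. Of 20 loci with at least 10 counts in both groups, the share was larger in neurons at 16 and smaller at 4.

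**Figure D5:**
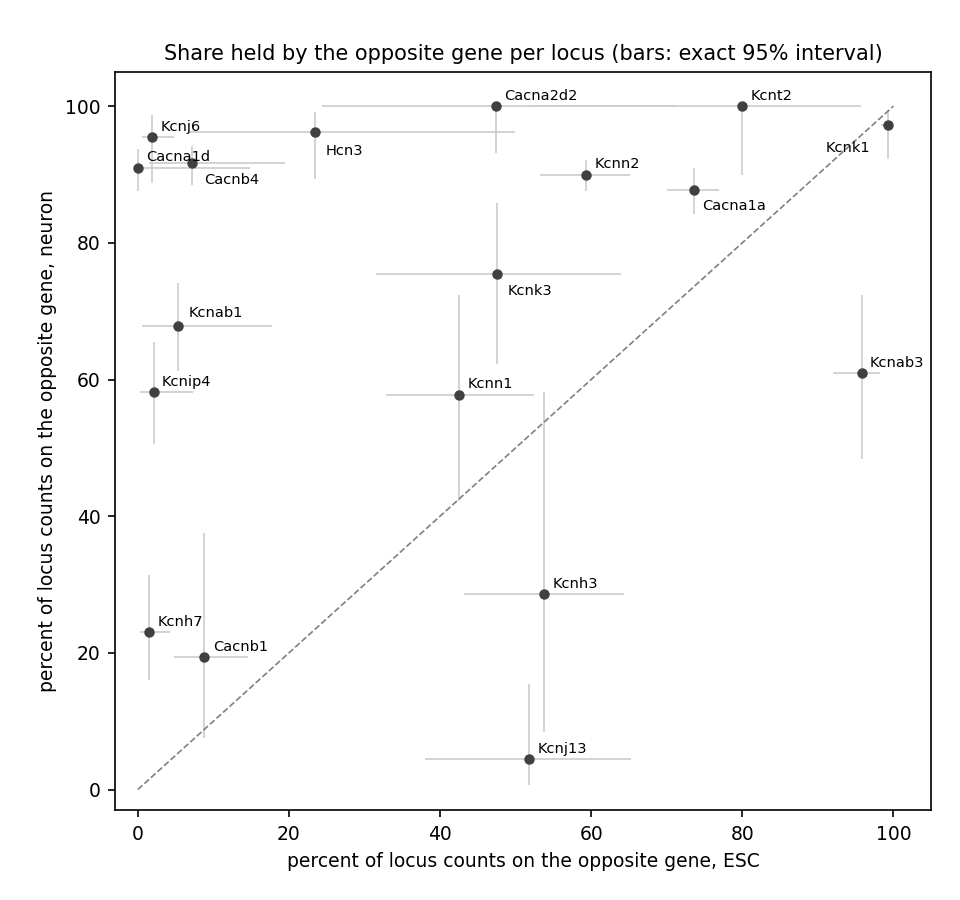
Percent of the counts at a locus that were assigned to the opposite-strand gene, in ESC (horizontal axis) and in neurons (vertical axis), for 18 of the 20 loci with at least 10 counts in both groups; bars are exact 95% binomial intervals from summed counts and cover counting error only. The 14 points above the dashed line of equal shares include Kcnj6 (1.9% and 95.5%), and the 4 below it are Kcnk1, Kcnab3, Kcnh3 and Kcnj13.

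Since the table may divide a locus's reads between strands, each channel gene and its opposite partners were also summed and tested as 1 row. The sums hold all counts of the opposite genes, those from exons outside the shared bases included. Of the 7132 rows in this fit, 85.5% were called and 46.9% called higher. Of the 35 loci, 30 were tested, 19 were higher in neurons, 6 were lower and 5 did not pass; scaled by total counts, 22 were higher and 3 lower. The Kcna6 locus had 1, 0 and 1 counts in ESC against 524, 413 and 422 in neurons, a ratio of 1143 with a counting interval of 316 to 9448. Kcnma1 had 3, 0 and 0 against 167, 155 and 144, a ratio of 261 (88.9 to 1272), and Kcnmb4 had 1, 1 and 2 against 181, 202 and 181, a log2 fold change of 7.74 (SE 0.31, adjusted p = 1.86e-24 in edgeR). Loci of the BK channel, Kcna6, Kcnd3, Kcnk2 and Kcna3 were much higher in neurons as sums, with libraries well apart. Each had at most 4 ESC counts in total, passed the filter through the neuron libraries and had to be higher. Opposite-strand genes held from 71.5% (Kcnk2) to 99.8% (Kcna6) of their neuron counts. These sums thus mostly repeat the calls of the opposite genes and are no separate support for a direction.

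Several calls made on the channel gene alone did not hold for its locus, and these values depended on the scaling. At Cacna1a the sum was 193 ± 32.9 CPM in ESC and 196 ± 11.6 CPM in neurons, overlapping, with a log2 fold change of 0.03 (SE 0.15, adjusted p = 0.861 in edgeR), but 0.76 under total counts (adjusted p = 1.3e-05). The Kcnj6 sum, at 59.7 ± 16.5 and 43.3 ± 24.0 CPM, also overlapped (log2 fold change -0.48, adjusted p = 0.14 in edgeR), as did those of Kcnn1 (-0.48, adjusted p = 0.127) and Kcnj13 (0.39, adjusted p = 0.272). Under total counts Kcnj6 and Kcnn1 turned to 0.25 and 0.24, neither called, and Kcnj13 passed at 1.12 (adjusted p = 0.00283). The Kcnab3 locus, with 76, 60 and 56 counts in ESC against 23, 26 and 20 in neurons, was called lower (log2 fold change -0.72, SE 0.24, adjusted p = 0.0068 in edgeR) while the gene was higher, but under total counts its value was 0.01 (adjusted p = 0.972).

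The Cacnb1 locus was lower like its gene, with 42.9 ± 3.14 CPM in ESC and 14.8 ± 4.58 CPM in neurons (SD, n = 3; log2 fold change -1.50, SE 0.30, adjusted p = 2.15e-05 in edgeR), beside -1.67 for the gene alone. Kcnk1 and Kcnh3, an Elk-type potassium channel gene of the forebrain, were lower as loci, though untested as genes. At Kcnk1, Gm45875 held 99.3% of the ESC and 97.3% of the neuron counts, so this call repeats that of Gm45875. Kcnk1 itself had 1, 2 and 1 counts in ESC against 2, 1 and 0 in neurons. Kcnh3 shares a single exonic base with Mcrs1. Kcnn2, not passed as a gene, was higher as a locus with 78.5 ± 10.7 CPM in ESC and 346 ± 27.5 CPM in neurons (SD, n = 3; log2 fold change 2.13, adjusted p = 2.87e-16 in edgeR). Kcnip4, not passed as a gene, was also higher as a locus (log2 fold change 1.62, adjusted p = 9.64e-08 in edgeR). There the opposite gene 5730480H06Rik had 1, 0 and 1 counts in ESC against 26, 26 and 28 in neurons. It shares only 1.8% of its exonic bases with Kcnip4. Gm20700, which shares 4.5%, had none in ESC and 13, 8 and 2 in neurons. These 5 loci kept their direction and call under total counts, with Cacnb1 at -0.77 (adjusted p = 0.0211) and Kcnk1 at -0.93.

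With no filter on low counts, edgeR called 40.8% of 28820 genes, and 58 of 123 channel genes with a count passed, 42 higher and 16 lower. The added calls were of genes with low counts, since all that the filter had left out entered.

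Genes that act with channels without being channels were followed in a list of 35 anchors, auxiliary proteins, pumps and transporters. Of the 34 that were found there, 10 were tested, 5 were higher, 3 were lower and 2 did not pass, beside 85.6% called among all tested genes. Slc12a5 (KCC2), the chloride exporter of maturing neurons, had 13, 2 and 4 counts in ESC against 14, 10 and 11 in neurons and was higher (log2 fold change 1.62, SE 0.45, adjusted p = 0.00114 in edgeR). Lgi1, a secreted partner of Kv1 complexes, was lower with 74, 57 and 64 against 2, 2 and 0, while its receptor Adam22 was higher with 6, 6 and 2 against 30, 20 and 13. Lgi1 shares exonic bases with another gene and Adam22 does not.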

How the data were processed

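The authors deposited 1 table of raw counts per gene, with Ensembl IDs, exon coordinates and exon length, for 6 libraries. Per the submitters' processing notes, cutadapt, STAR and RSEM and the build GRCm39 (mm39) were used; versions and the strand setting are not given in the sources used here. Symbols came from GENCODE M21 (91.3% of genes matched). Exon sharing on opposite strands was computed from the coordinates in the table, and coding parts and sequences came from GENCODE M21 on GRCm38.

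Counts were tested with edgeR 4.0.16 in R 4.3.3 (TMM, filterByExpr with a minimum count of 10, robust glmQLFit, glmQLFTest), neuron against ESC over all 6 libraries, with Benjamini-Hochberg adjustment. On simulated counts of 7150 genes, 200 of them changed 4-fold, 87.5% of the changed genes were called and 3.85% of calls were unchanged genes. These values hold for that setting only. In the libraries 85.6% of the tested genes were called, and the error rate with so many genes called was not tested. Intervals of ratios and shares are exact at 95% and cover counting error only. A fold against a group at 0 in all 3 libraries was taken against 3 counts per library; groups with 1 to 3 counts were given a ratio with its interval, a narrower use of the bound than first planned. Members could all be named, with full statistics for those with the largest changes, the highest opposite-strand levels and a list of neuronal channels. The members and lists were chosen with earlier results of these data known. Same-numbered libraries did not deviate together (r from -0.0223 to 0.0189). Replicates of a group differed by more than counting noise (chi-square per degree of freedom 1.31 to 4.16). The alternatives were DESeq2 1.42.0 (size factors and Wald test), limma 3.58.1 with voom, total counts, other filters, a replicate block, locus sums and leaving out each library. Some members are counted in the totals and not reported here by name.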

Additional observations from a re-analysis of the deposited data

How the results depend on the processing

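Depth limits the results: 106 of 136 channel genes were too low to test, and the strand setting, not known, bears on every gene. Scaling by total counts moved the median log2 fold change of all genes by 0.73 and the share of higher calls among all calls from 54.9 to 65.5%; channel genes were then 22 higher and 5 lower, opposite-strand genes 29 higher and 2 lower. Without a filter 11762 genes, 58 channel genes and 16 genes of the partner list passed, and 13 channel genes did where the mean count had to reach 10 (7 higher, 6 lower). Channel genes sharing no exonic base gave 13 calls, and locus sums gave 39 (32 higher, 7 lower of 44). Under total counts 25 loci passed, 22 higher and 3 lower in place of 19 and 6, and the neuron to ESC ratios of summed levels were 2.33 (channel genes), 8.02 (opposite-strand genes), 5.37 (channel genes sharing no exonic base) and, turned, 1.34 (channel genes with a partner). Log2 fold changes of loci turned for Kcnn1 (0.24), Kcnj6 (0.25) and Kcnab3 (0.01). These total-count values of sums and loci were added after seeing the data. Chosen after seeing the data, counting the 4 genes named os with the channel genes gave 31 calls, and the opposite-strand genes without them 25. DESeq2's Wald test called 24 channel and 29 opposite-strand genes, voom 26 and 29.

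The ESC share held by opposite-strand genes was 57.8% with at least 100 shared bases and 41.5% as the median over loci; the neuron share without the Kcna6 locus, also added later, was 85.4%. Leaving out 1 library gave 5430 to 7353 calls among all genes, 20 to 34 channel genes, 27 to 31 opposite-strand genes, 7 to 11 of the partner list, 25 to 26 loci, and shares of 55.3 to 56.0% in ESC and 87.8 to 89.1% in neurons. With the replicate number as a block, 6088 genes, 27 channel genes, 29 opposite-strand genes and 8 of the list passed; the numbers do not pair the libraries.

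The log2 fold change turned for 3 genes, none of them called. It was 0.42 (total counts) and 0.05 (mean of at least 10 counts) for Kcnh7, and 0.68 and 0.32 for A230052G05Rik, with -0.26 to 0.01 when a library was left out, the latter without neuron replicate 2. For Kcnn2 it was -0.06 (no filter), -0.15 (without ESC replicate 2) and -0.01 (without ESC replicate 3), and up to 0.27 without ESC replicate 1. The cause was not tested. Of 704 values of single genes named here or drawn, over the alternatives, 673 kept their direction and side of the threshold, 17 lost the call, 6 gained one and 8 turned.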
